A study of Mus musculus with 2 samples.

Results

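Astrocytes and Bergmann glia are the supporting glia of the cerebellar cortex, and 10 of their genes were followed here in laser-captured granule layer: Aqp4, Gja1, Gjb6, Sparcl1, S100b, Gfap, Slc4a4, Agt, Sox9 and Hopx. They were chosen by symbol, as genes known from these glia, and all 10 were found among the 43346 Ensembl gene rows of each deposited table. The study holds 1 group of 2 captured areas, replicates 1 and 2, from the cerebellar granule layer of adult male wild-type mice of strain B6NCrl aged 8 months. Each area measured 18000 square microns and started from 50 cells, per the labels, the antibody label reads Control, and Smart-seq copied the RNA. No group carries a treatment or altered allele, so there is no contrast between conditions. Both areas carry 1 donor label, which does not say whether they came from 1 animal or 2. Values below are TPM, transcript abundances corrected for transcript length and scaled to a fixed total, as mean ± SD of the areas (n = 2), and the SD may therefore be technical.

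In the cerebellum, Bergmann glia keep their cell bodies beside the Purkinje cells and send processes up through the molecular layer. Velate astrocytes lie among the granule neurons and wrap their synapses and capillaries. Both clear potassium, water, acid and glutamate released by active neurons, and they are joined by gap junctions. The genes followed here encode a water channel (Aqp4), 2 connexins (Gja1, Gjb6), a bicarbonate transporter (Slc4a4), secreted proteins (Sparcl1, Agt), a calcium-binding protein (S100b), a filament protein (Gfap) and nuclear regulators (Sox9, Hopx).

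Replicate 1 held 19962271 expected counts in annotated genes and replicate 2 held 19261911. The libraries were not alike in every cell type: globin genes of red blood cells were far higher in replicate 1, where Hba-a2 was at 2178 TPM against 163 in replicate 2. The biological coefficient of variation over all genes was 0.272. In captured tissue, fewer cells of a type and less RNA per cell cannot be told apart.

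Sequences are shown where the transcript tables separate starts or ends of these genes. Hopx has a proximal and a distal start, and Slc4a4 has a downstream start known best from its kidney form. The stretches below, from RefSeq on GRCm38.p6 (the build that the files call mm10), end just before the first annotated exon base at each start. Capitals mark CCAAT (or ATTGG on the other strand) and AACAAT (or ATTGTT), the core that Sox factors bind. The distal and the proximal Hopx stretches lie at chr5:77115122-77115373 and chr5:77095278-77095517 on the minus strand, and the Slc4a4 stretch at chr5:89027716-89027965 on the plus strand.
Hopx proximal start: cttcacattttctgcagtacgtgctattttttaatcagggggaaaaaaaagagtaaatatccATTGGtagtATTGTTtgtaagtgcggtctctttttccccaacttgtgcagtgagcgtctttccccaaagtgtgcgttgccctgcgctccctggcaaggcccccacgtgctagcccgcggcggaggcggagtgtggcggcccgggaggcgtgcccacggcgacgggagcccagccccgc
Hopx distal start: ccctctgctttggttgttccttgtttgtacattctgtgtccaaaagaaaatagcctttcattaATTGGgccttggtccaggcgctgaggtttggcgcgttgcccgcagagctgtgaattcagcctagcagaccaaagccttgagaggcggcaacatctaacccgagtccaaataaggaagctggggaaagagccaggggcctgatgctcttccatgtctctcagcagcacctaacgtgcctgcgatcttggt
Slc4a4 downstream start: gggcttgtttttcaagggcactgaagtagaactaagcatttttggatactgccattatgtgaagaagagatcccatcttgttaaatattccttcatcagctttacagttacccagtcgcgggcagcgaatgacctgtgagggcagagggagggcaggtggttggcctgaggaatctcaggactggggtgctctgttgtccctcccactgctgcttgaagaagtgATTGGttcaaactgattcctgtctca

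The promoter table held 9 windows of 300 bases for 7 of the genes: Hopx and Slc4a4 with 2 each, and Agt, Gja1, S100b, Gfap and Gjb6 with 1 each. Aqp4, Sparcl1 and Sox9 were not matched. Searched on both strands, AACAAT was in 1 of the 9, the proximal Hopx window, against 10.7% of all 32851 windows. CCAAT was in 4 of the 9 (both Hopx windows, the downstream Slc4a4 window and S100b), against 37.4% of all. TATAAA was in 1 of the 9, that of Agt, against 13.6%. The full palindrome of nuclear factor I was in 0 of the 9 and in 0.0365% of all windows. A match describes letters in a window and is not a binding site. The upstream Slc4a4 window was 80.0% G or C with 50 CG pairs, against 48.3% and 3 for the downstream one, and the proximal Hopx window was 59.0% G or C with 21 CG pairs against 53.0% and 8 for the distal one. The median over all windows was 52.7% and 7.

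Gfap makes 2 full-length transcripts that share 7 coding exons (1162 coding bases) and differ in the end of the protein. Gfap-201, the common form, ends with 128 bases from 2 exons. Gfap-202 ends with 122 bases of an alternative exon, the arrangement known as the delta form. The alternative end, which sets the delta form apart, is shown from the GENCODE M21 transcript, at chr11:102891396-102891520 on the minus strand, with the stop codon in capitals.
Gfap-202 end: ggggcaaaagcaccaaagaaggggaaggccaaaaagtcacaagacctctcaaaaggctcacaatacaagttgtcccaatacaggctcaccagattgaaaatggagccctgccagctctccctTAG

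Slc4a4-207 and Slc4a4-208 start upstream and differ near the end: Slc4a4-208 lacks an exon of 97 bases, which is not a multiple of 3 and so changes the reading frame after it; a brain form without this exon is known. That exon lies at chr5:89232764-89232860 on the plus strand.
Slc4a4-207 exon: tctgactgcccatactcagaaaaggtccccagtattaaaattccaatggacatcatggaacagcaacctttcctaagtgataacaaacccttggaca

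All 10 genes were detected in both areas, where detection means 1 TPM or more from 5 or more expected counts, against 50.4% of the 21474 protein-coding genes. Their levels spanned 20.6-fold, from Sparcl1 at 127 ± 13.4 TPM to Gfap at 6.18 ± 0.544 TPM. The median of the 10 was 48.9 TPM in replicate 1 and 45.9 in replicate 2, beside medians of 14.3 and 14.1 over the 10817 protein-coding genes detected in both. The genes were chosen with earlier results of these data known, so these backgrounds place their levels and test nothing. Together they held 575 TPM in replicate 1 and 567 in replicate 2, and 0.152% of the gene counts in each library.

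**Figure D1:**
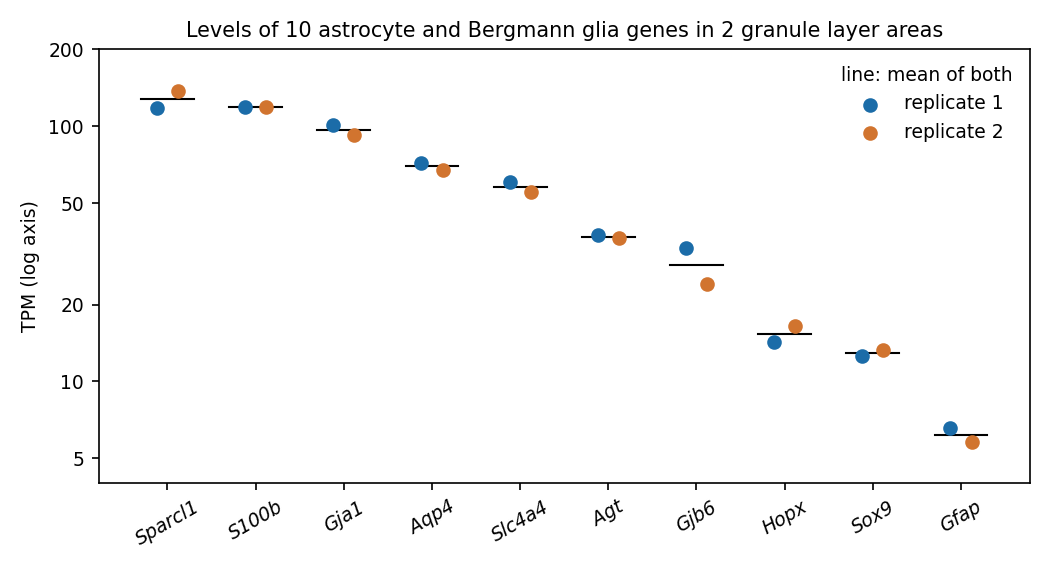
TPM (log axis) of the 10 genes in each captured area, ordered by their mean (black line), with replicate 1 in blue and replicate 2 in orange. Levels fall from Sparcl1 at 127 to Gfap at 6.18, and Sparcl1 and S100b are the neighbours whose order is not the same in both areas.

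The order of the levels was Sparcl1, S100b, Gja1, Aqp4, Slc4a4, Agt, Gjb6, Hopx, Sox9 and Gfap. Sparcl1 and S100b did not differ beyond their spread: their means lay 8.38 TPM apart with a combined SD of 13.4, and S100b was the higher in replicate 1. Every other pair of neighbours kept its order in both areas, without overlap of the TPM values. The closest of these were Agt and Gjb6, 8.22 TPM apart with a combined SD of 6.57, and Hopx and Sox9, 2.48 TPM apart with a combined SD of 1.65.

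Aqp4, the water channel of astrocyte endfeet at capillaries (ENSMUSG00000024411.9, chromosome 18, 15389496 to 15410982), was at 72.0 TPM in replicate 1 and 67.4 in replicate 2, from 6145 and 5595 counts. It stood above 84.8% and 83.8% of the detected protein-coding genes. Among 11 aquaporin genes it held 83.3% and 84.6% of the summed TPM. The next, Aqp11, was at 7.30 and 7.56 TPM, and Aqp6 was at 5.83 and 3.64. Aqp9 was at 0.830 and 0.650 TPM, and Aqp3, Aqp8 and Aqp12 had 0 counts in both libraries, which allows up to 3 counts, or 0.150 and 0.156 CPM (counts scaled to a fixed total of gene counts). That limit covers counting error only.

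Partners of Aqp4 in anchoring and in potassium clearance were unevenly present, with 11 of 16 detected in both areas. Atp1b2, the glial sodium pump subunit, was highest at 112 and 123 TPM. The pump regulator Fxyd1 was at 64.6 and 64.7 TPM. Dmd, the dystrophin gene whose short product anchors Aqp4 at endfeet, was at 11.4 and 18.1 TPM, the widest log2 ratio, 0.62, among genes of this list with a mean of 1 TPM or more. Kcnj10, the main potassium channel of astrocytes, was at 4.50 and 3.72 TPM, so Aqp4 stood 17.1 ± 1.503 times above it. Mlc1 and Hepacam, endfoot proteins that act together, were at 11.7 ± 2.09 and 5.68 ± 0.856 TPM.

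Gja1, the main connexin of astrocytes (ENSMUSG00000050953.9, chromosome 10, 56377330 to 56402513), was at 101 TPM in replicate 1 and 92.0 in replicate 2, from 5220 and 4605 counts. Gjb6, the second astrocyte connexin (ENSMUSG00000040055.8, chromosome 14, 57123303 to 57133611), was at 33.3 and 24.0 TPM, from 961 and 683 counts. Both were higher in replicate 1, and Gja1 stood 3.05 and 3.83 times above Gjb6. Of the summed TPM of 19 connexin genes, Gja1 held 67.8% and 71.0%, and Gjb6 held 22.2% and 18.5%. The remaining connexins were low. Gjc3, a connexin of myelinating glia, was at 7.02 and 7.20 TPM. Gjb2, a further connexin ascribed to astrocytes, was at 0.460 and 0.420 TPM from 18 and 16 counts. Gjc1 was at 3.10 and 0.60 TPM, the widest log2 ratio of the list, at -1.36. Of the 21 connexin, pannexin and Tjp1 genes beyond these 2, 4 were detected in both areas (9 at a limit of 0.1 TPM, 1 at 5 TPM) and 8 had 0 counts in both, among them Gja3 and Gja10. Panx2 was at 3.52 and 3.83 TPM, and Tjp1, which binds the tail of Gja1, at 3.99 and 2.07.

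Sparcl1, the secreted protein hevin that promotes the formation of excitatory synapses (ENSMUSG00000029309.3, chromosome 5, 104079111 to 104113733), was at 118 TPM in replicate 1 and 137 in replicate 2, from 6095 and 6875 counts. Its relative Sparc, which counters hevin at synapses and is also made by capillary endothelium, went the other way, at 140 and 110 TPM. The ratio of Sparcl1 to Sparc was therefore 0.842 in replicate 1 and 1.25 in replicate 2. Endothelial markers had a summed level of 350 TPM in replicate 1 and 285 in replicate 2, and their part in the Sparc values was not tested. Other secreted synapse organizers and matrix proteins were lower: Spock2 was at 15.9 and 12.6 TPM and the perineuronal net protein Bcan at 9.20 and 7.84. Thbs3 was at 4.24 and 5.88 TPM, from 29 and 34 counts. Thbs4 had 0 counts in both. Of 15 found besides Sparcl1, 8 were detected in both areas, and 3 at a limit of 5 TPM.

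S100b, the calcium-binding protein widely used to stain astrocytes (ENSMUSG00000033208.7, chromosome 10, 76253853 to 76261159), gave 118.87 TPM in replicate 1 and 119.24 in replicate 2, from 2821 and 2751 counts. Its 2 values were the closest of the 10, with an SD of 0.220% of its mean. However, 6 of the 10, S100b among them, did not differ by more than counting error. S100a1 was the only S100 gene above it, at 146 and 130 TPM, and S100a16 followed at 101 and 109. S100a10, the annexin partner, was at 42.3 and 65.6 TPM. S100a5, S100a8, S100a9 and S100a14 had 0 counts in both libraries. Of 16 other genes of this list, 7 were detected in both areas.

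Gfap, the intermediate filament of fibrous and reactive astrocytes (ENSMUSG00000020932.10, chromosome 11, 102887336 to 102900912), was the lowest of the 10 at 6.57 TPM in replicate 1 and 5.80 in replicate 2, from 285 and 245 counts. Only 29.5% and 27.2% of detected protein-coding genes lay below it. Aqp4 stood 11.3 ± 0.471 times and S100b 19.3 ± 1.74 times above Gfap. Vim, a filament of Bergmann glia and vessels, was at 21.3 and 18.9 TPM, and the ratio of Gfap to Vim was 0.309 and 0.307. The neuronal filament genes Ina, at 53.9 and 54.1 TPM, and Nefl, at 28.6 and 35.8, were above both. Des was at 0.810 and 1.46 TPM.

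Slc4a4, the electrogenic sodium bicarbonate cotransporter of astrocytes (ENSMUSG00000060961.10, chromosome 5, 88886818 to 89239653), was at 60.5 TPM in replicate 1 and 55.4 in replicate 2. Its counts were 6579 and 6357, which is 329.6 and 330.0 CPM. The CPM differed by less than counting error. TPM also divides by length, and the estimated mean length of its transcripts was 6448 bases in replicate 1 and 6992 in replicate 2. Slc4a4 was the highest of 10 Slc4 genes measured. Slc4a10, a bicarbonate transporter of neurons, was next, and Slc4a4 stood 1.51 ± 0.0105 times above it. Slc4a8 was at 10.2 and 5.35 TPM. Carbonic anhydrases, which supply its substrate, ranged from 0 counts for Car1 to 147 and 161 TPM for Car4. Car2, found in oligodendrocytes, was at 77.6 and 100 TPM. Bsg, a partner of lactate carriers that endothelium and neurons also express, was at 442 and 514 TPM. Of 22 genes of this list besides Slc4a4, 15 were detected in both areas, and 10 at a limit of 5 TPM.

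Agt, the precursor of the angiotensin peptides that brain astrocytes make (ENSMUSG00000031980.9, chromosome 8, 124556534 to 124569706), was at 37.4 TPM in replicate 1 and 36.4 in replicate 2, from 1147 and 1085 counts. The classical enzymes and receptors that act on its product were low or at 0 counts. Ren1, the gene of renin, and the receptor genes Agtr1a, Agtr1b and Agtr2 each had 0 counts in both libraries. Ace, the converting enzyme, had 5 and 25.8 counts, or 0.0600 and 0.320 TPM. Mas1, a receptor for a shorter angiotensin peptide, was at 0.700 and 1.85 TPM. The higher genes of this list have broader roles: Atp6ap2, the prorenin receptor and proton pump subunit, was at 175 and 170 TPM, the lysosomal protease Ctsd at 50.7 and 40.2, and the peptidase Lnpep at 26.6 and 28.3. Of 17 genes besides Agt, 6 were detected in both areas (3 at a limit of 5 TPM) and 5 had 0 counts in both.

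Sox9, a transcription factor of glial fate that adult astrocytes keep (ENSMUSG00000000567.5, chromosome 11, 112782224 to 112787760), was at 12.6 TPM in replicate 1 and 13.2 in replicate 2, from 869 and 890 counts. It was the highest of 19 Sox genes and held 49.3% and 57.4% of their summed TPM. Sox5 followed at 3.17 and 1.95 TPM, Sox4 at 1.80 and 1.20, and Sox2, which astrocytes share with progenitors, at 1.53 and 1.35. Sox10, the oligodendrocyte factor, was at 0.580 and 0.460 TPM from 26 and 20 counts. Sox12 was at 1.43 and 0.690 TPM, and Sox14 had 0 counts. Beyond Sox9, 4 of 18 Sox genes were detected in both areas, with 12 at a limit of 0.1 TPM and 0 at 5 TPM.

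Hopx, a homeodomain protein without DNA binding of its own, known in Bergmann glia and in adult neural stem cells (ENSMUSG00000059325.10, chromosome 5, 77086988 to 77115121), was at 14.3 TPM in replicate 1 and 16.5 in replicate 2, from 250 and 282 counts. Of the other regulators listed with it, 13 of 17 were detected. Id2 was at 342 and 299 TPM, Nfix at 172 and 157 and Nfib at 109 and 104; granule neurons also express Nfix and Nfib. Hes1, a Notch target, was at 3.33 and 7.84 TPM, the widest log2 ratio of the list at 1.03. Lhx2 had 0 counts in both areas.

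**Figure D2:**
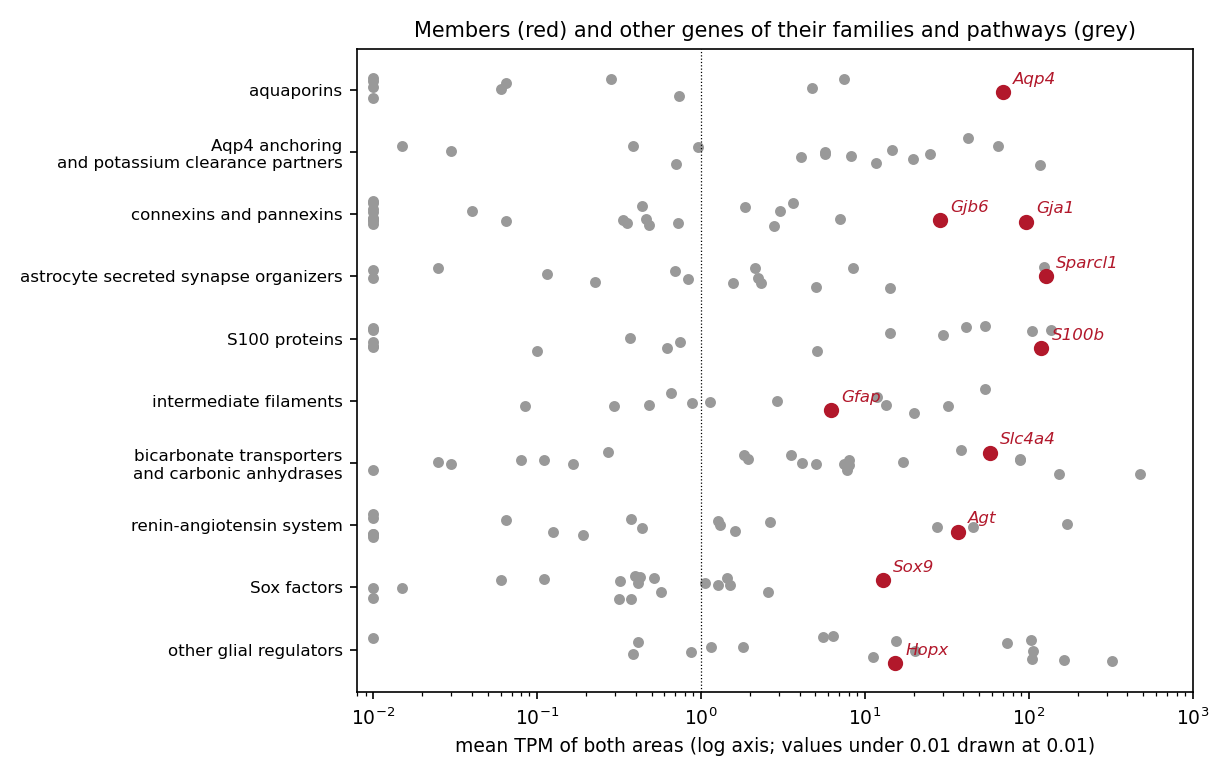
Mean TPM of both areas (log axis, values under 0.01 drawn at 0.01) of the 10 genes in red and of the other genes of each family or pathway in grey; the dotted line marks 1 TPM. Aqp4, Gja1, Sparcl1 and Sox9 have the highest means of their rows, while Gfap at 6.18 lies below 5 other filament genes. Sparc was above Sparcl1 in replicate 1, at 140 against 118 TPM.

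Of the 10 genes, 6 have 1 transcript each in the tables, though GENCODE M21 lists 11 for Aqp4, 8 for Gja1 and 2 for Sparcl1. Gjb6, Gfap, Slc4a4 and Hopx have several. In each of those 4, 1 transcript led in both areas with over 50% of the gene's TPM, but the shares by TPM and by counts were not alike for all of them. Gfap-201 held 65.5% and 72.3% of Gfap TPM. Gfap-202, with the alternative end shown above, held 34.5% and 27.7%, from 97.2 and 66.9 counts. The estimated counts of Gfap-202 had posterior SDs of 4.90 and 4.36, which measure how far reads could move between the forms. By counts its share was 34.1% and 27.3%.

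Slc4a4 reads were assigned to the upstream start almost entirely. The 5 transcripts that begin upstream of the downstream start held 6514 and 6315 counts, 99.0% and 99.3% of the gene. The 3 that begin at the downstream start held 65.2 and 42.1 counts, or 1.57 and 1.04 TPM, all in Slc4a4-201. Slc4a4-203, the full-length transcript from that start, had 0 counts in both libraries. Slc4a4-207 held 6233 and 6185 counts. Slc4a4-208, without the 97-base exon, held 237 and 106 counts with posterior SDs of 30.3 and 22.03.

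Hopx reads were assigned mostly to the proximal start. Hopx-202 held 232 and 249 counts, 93.6% and 89.3% of the gene's TPM. Hopx-203, which begins close to it, held 17.4 and 16.3 counts. Hopx-201, from the distal start, had 0 counts in replicate 1 and 17.3 in replicate 2, with a posterior SD of 5.88 in the latter. Hopxos, an antisense gene, shares 412 exon bases with Hopx and had 1.44 and 4.53 counts, and the use of strand in counting is not given in the sources used here.

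Gjb6-201 held 938 and 662 counts, 97.6% and 96.9% of the gene's counts, but 82.1% and 82.5% of its TPM. Gjb6-203, a noncoding transcript of 201 bases, held only 8.54 and 5.04 counts and yet 14.7% and 12.3% of the TPM, with an effective length of 102 bases. Slc4a4-206, of 371 bases, likewise held 27.9 and 20.1 counts and 9.90% and 8.00% of the TPM. Without transcripts of an effective length under 300 bases, a check added after the data were seen, Gjb6 was at 28.4 and 21.04 TPM and Slc4a4 at 54.5 and 50.9.

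**Figure D3:**
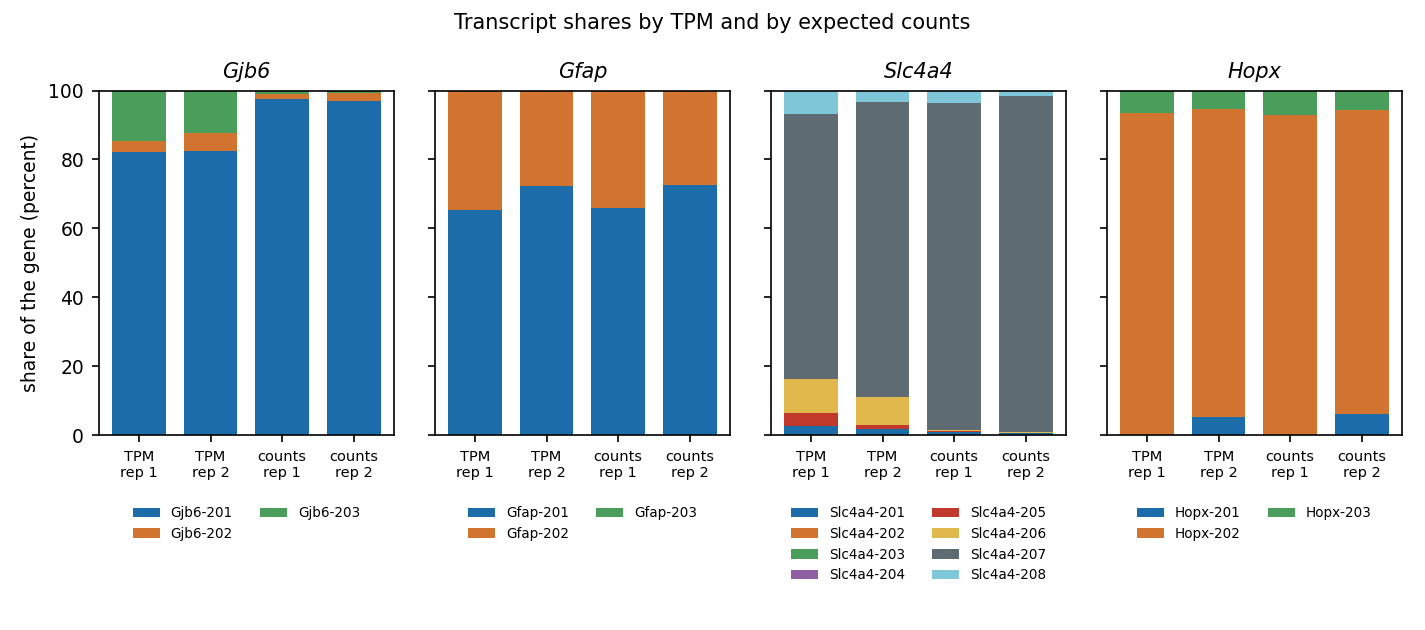
Share of each gene, in percent, held by each transcript of Gjb6, Gfap, Slc4a4 and Hopx, by TPM (left pair of bars) and by expected counts (right pair), for replicates 1 and 2. Gjb6-203 takes 14.7% and 12.3% of Gjb6 by TPM and under 1% by counts, and Gfap-202 takes 34.5% and 27.7% by TPM.

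The next comparison asked which of the genes differed between the areas by more than counting error. Differences are log2(TPM + 1) of replicate 2 minus replicate 1, and replicates have no order. In exact binomial tests, two-sided, of the rounded counts, with Benjamini-Hochberg adjustment over all 16636 genes tested, 4 of the 10 lay beyond counting error, beside 47.6% of all genes. The test sets 1 library against the other, not conditions, and assumes that reads are independent. Gjb6, Gja1 and Aqp4 were higher in replicate 1 (24% of all genes were called in that direction) and Sparcl1 in replicate 2 (23.7%). Among the 8195 genes with a summed count of at least 500, a level that all 10 exceed, 52.5% were called. A share of 4 in 10 is near both backgrounds.

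Gjb6 had the widest difference of the 10, at -0.45 on the log2 scale, with an adjusted p of 1.27e-08 by the exact binomial test. Sparcl1 followed at 0.21, with an adjusted exact p of 3.56e-17. Gja1 differed by -0.14 with an adjusted exact p of 5.32e-05, and Aqp4 by -0.09 with 0.00517. The other 6 ranged from -0.15 (Gfap) to 0.20 (Hopx), with adjusted exact p-values from 0.131 to 0.974. The median absolute difference was 0.13 over the 10 genes, 0.21 over all genes tested and 0.15 over those with a summed count of at least 500. When every count was first divided by 10, 0 of the 10 and 0.703% of all genes were called, so these calls depend on reads being independent.

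**Figure D4:**
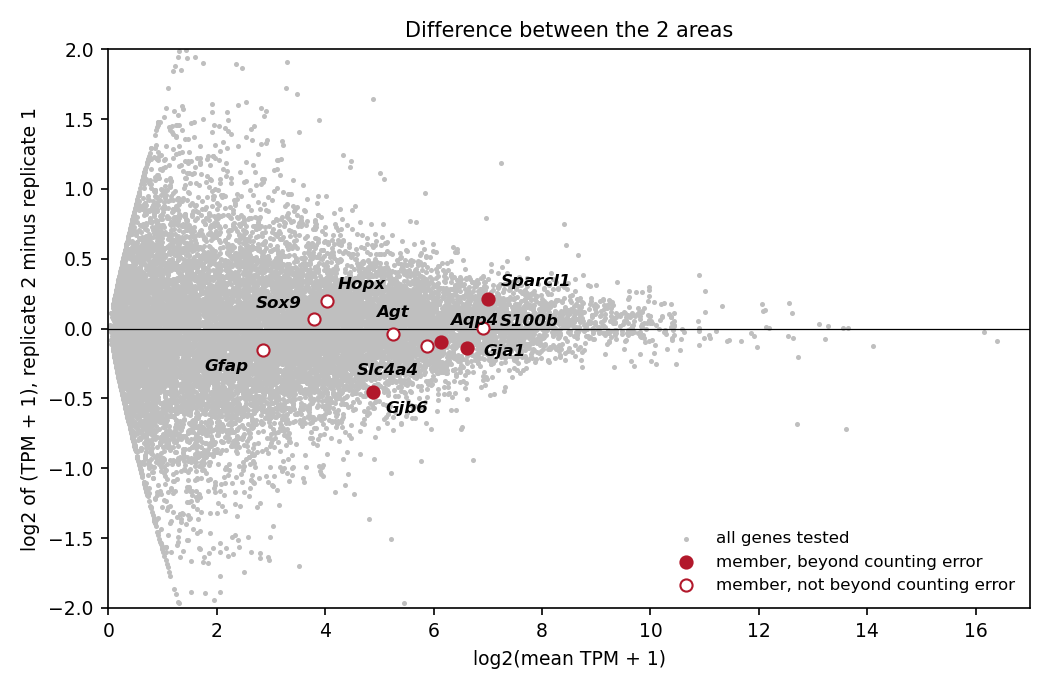
Difference between the areas (log2 of TPM + 1, replicate 2 minus replicate 1) against log2(mean TPM + 1) for all genes tested in grey and the 10 genes in red, filled where beyond counting error; 36 genes beyond a difference of 2 are not drawn. Gjb6 lies lowest at -0.45 and Sparcl1 highest at 0.21.

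Markers of other cell types are given beside these differences, to be read against the 24% of all genes beyond counting error towards replicate 1 and 23.7% towards replicate 2. Of 16 oligodendrocyte markers, 13 lay beyond it towards replicate 2 and 0 towards replicate 1, with a summed level of 812 and 1081 TPM in replicates 1 and 2. Mbp, a myelin protein gene, was at 249 and 312 TPM. Apod, which had the widest log2 ratio of this list, was at 91.5 and 210 TPM and is part of that sum. Of 10 endothelial markers, 8 lay beyond counting error towards replicate 1 and 0 towards replicate 2, with Ly6c1 at 141 and 120 TPM. Of 9 mural cell markers, 6 lay beyond it towards replicate 2 and 2 towards replicate 1. Of 11 microglial markers, 7 lay beyond it towards replicate 1 and 2 towards replicate 2, with summed levels of 140 and 109 TPM; their median went the other way, at 6.79 and 9.24 TPM. Of 15 granule neuron markers, 8 lay beyond counting error towards replicate 2 and 1 towards replicate 1. Their median difference was 0.07, with Gabra6 at 925 and 1086 TPM. The part of these values in the differences of Gjb6, Gja1, Aqp4 and Sparcl1 was not tested.

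Other genes of astrocytes were described to check the label. Of 37 found, 35 were detected in both areas, with medians of 28.1 and 26.4 TPM. Cst3 and Apoe, both also made by microglia, led at 974 and 972 and at 660 and 640 TPM. Slc1a3, the glutamate transporter of Bergmann glia, was at 31.8 and 29.3 TPM, and Slc1a2, its astrocyte relative, at 23.1 and 19.6. Glul, the glutamine synthetase of astrocytes, was at 64.8 and 82.1 TPM. Slc6a11, a GABA transporter of astrocytes, was at 0.410 and 0.260 TPM from 28 and 17 counts, and Gldc was the lowest at 0.0600 and 0.160. Of the 37, 16 were beyond counting error towards replicate 1 and 8 towards replicate 2, beside 24% and 23.7% of all genes tested. Their median difference was -0.11, beside -0.07 for the 10 genes and -0.01 for all genes tested. With TMM-scaled counts in place of TPM, the median of the 10 genes was -0.013.

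Genes more typical of Bergmann glia were fewer: 13 of 22 were detected in both areas, and 8 at a limit of 5 TPM, with medians of 2.47 and 1.89 TPM. Sept4 was at 99.2 and 117 TPM and Fabp5 at 66.7 and 57.5. Fabp7, the fatty acid binding protein of Bergmann glia, was at 52.2 and 57.2 TPM, and Timp4 at 48.9 and 45.3. Gdf10, a growth factor that marks Bergmann glia, had 3 and 2 counts, or 0.07 and 0.05 TPM. Gli1 and Wif1 had 0 counts in both. Genes of both lists were thus present in both areas, while Gdf10 stood at or under the limit that a count of 0 allows. Slc1a3 belongs to both lists. Of the 16 with enough counts to be tested, 2 were beyond counting error towards replicate 1 and 1 towards replicate 2, beside 24% and 23.7% of all genes tested.

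**Figure D5:**
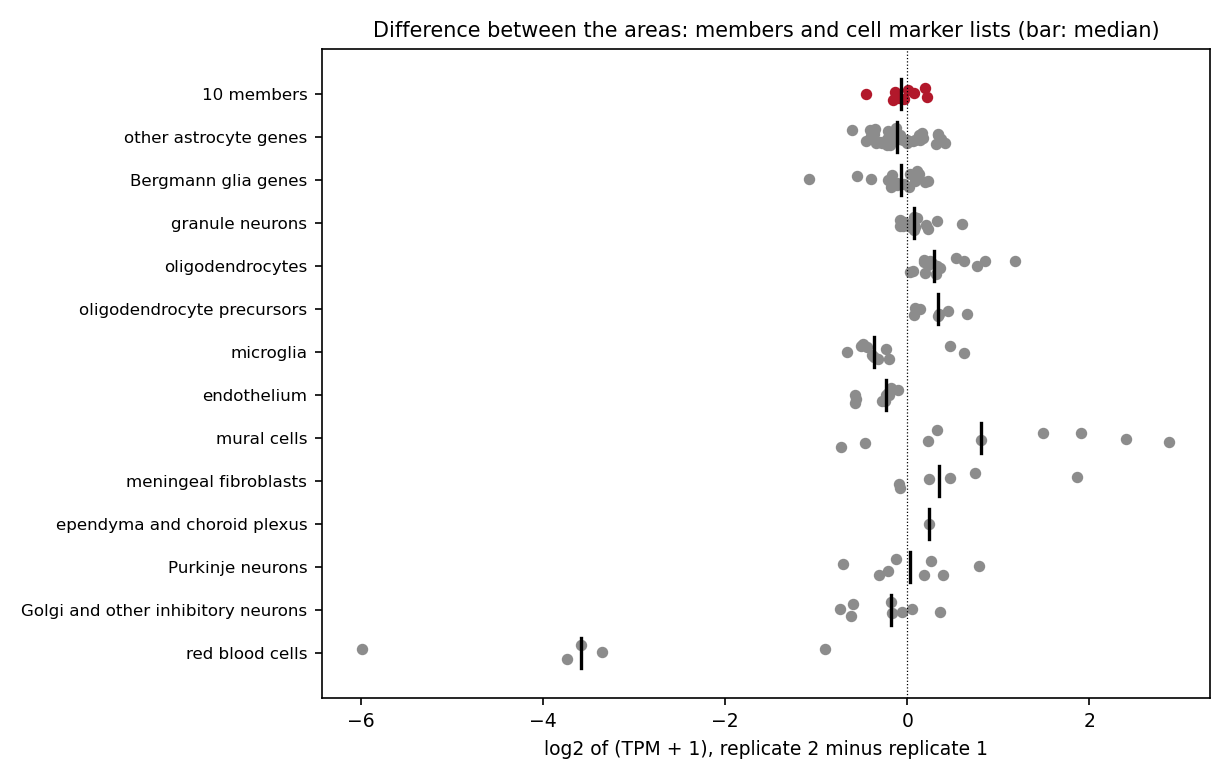
Difference between the areas (log2 of TPM + 1, replicate 2 minus replicate 1) for the 10 genes in red and for each list of cell markers in grey, 1 point per gene with a summed count of at least 10, with the median as a bar. The 10 genes center at -0.07, oligodendrocyte markers at 0.29 and red blood cell markers at -3.58.

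Compared with the remaining cell types, the 10 genes had a median level below that of granule neuron markers, which stood at 150 and 146 TPM, and above the oligodendrocyte markers, at 15.3 and 17.4. Medians were 9.43 and 7.88 TPM for endothelium, 12.96 and 12.1 for Purkinje neurons and 5.11 and 3.14 for Golgi and other inhibitory neurons. They were 1.70 and 6.35 TPM for mural cells, 0.320 and 0.590 for oligodendrocyte precursors and 0.290 and 0.660 for meningeal fibroblasts. Of 7 ependymal and choroid plexus markers, 6 had 0 counts in both libraries, Ttr among them. Markers are not equally abundant in the cells that make them, so these medians are not shares of cells.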

How the data were processed

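RNA of 2 captured areas was measured, 1 library each. Per the file headers, the authors deposited expected counts, in which a read can be split over transcripts. Their deposited TPM and FPKM columns correct for effective length and depth. Score columns deposited beside them hold the bounds of an interval on TPM, which surrounds the posterior mean and not the TPM itself, and the posterior SD of the count. The deposited percent column gives a transcript's share of its gene. The submitters' processing notes name mm10 and annotation M4. Aligner, counter and strand setting: not given in the sources used here.

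Each table had 69691 rows, of which 26345 were spike-ins or had numeric IDs; these held 2.78% and 3.40% of all counts and were left out of totals and tests. Names and coordinates came from GENCODE M21 (GRCm38), which matched 42462 of 43346 Ensembl IDs. M21 lists 11 transcripts of Aqp4, 8 of Gja1 and 2 of Sparcl1, and 1 of each gene has a row. Gene counts were 19962271 and 19261911. Genes with a summed count of at least 10 were tested on rounded counts with a two-sided exact binomial test (scipy 1.17.1). Benjamini-Hochberg adjustment was at 0.05. The procedure was tried on simulated counts drawn as independent, so that trial does not cover reads that are not independent. The biological coefficient of variation came from edgeR 4.0.16 with TMM scaling, and size factors for an alternative from DESeq2 1.42.0. Differences use a pseudocount of 1. Smart-seq reads are not independent molecules.

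The genes and lists were chosen with earlier results of these data known. Every one of the 10 genes is named; from each family list the 3 highest, up to 4 genes at 0 counts and the widest ratio among those at 1 TPM or more are named, from each cell list the 2 highest and the lowest, and 13 partner genes always. Aqp4 partners Mlc1 and Hepacam, and Slc1a2, Glul, Fabp7, Timp4, Wif1, Apod, Slc4a10, Slc4a4-201 and Slc4a4-203 were named after their values were seen. Cyr61 and Ppap2b matched no name. A few genes that this rule names, and 1 sequence, are not reported here. The alternatives were FPKM, posterior mean TPM, rescaled TPM, other library scalings, filters, pseudocounts and detection limits, counts divided by 10 and leaving out each replicate.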

Additional observations from a re-analysis of the deposited data

How the results depend on the processing

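The summed level of the 10 genes, 571 TPM, was 477 in FPKM, 555 from posterior means, 737 TPM over nuclear genes other than Malat1 and 562 TPM without transcripts under 300 bases of effective length, and it ran from 567 to 575 with 1 replicate left out. The 4 genes beyond counting error stayed the same 4 under TMM and DESeq2 scaling and without a count filter. With counts divided by 10 there were 0, and 117 of all genes against 7923. Genes of the family lists detected in both areas numbered 76 of 164, and 48 with a limit of 5 TPM. Of 249 values recomputed under alternatives, 0 were counted as changed in direction, but most were levels, shares or detection counts, which have none. Among the main values 21 stayed the same, 5 moved and 1 became weaker, and among the others 172, 46 and 4. For the tests, a change of sign was not counted for a gene below the threshold in both settings. The 249 values do not include the difference of each gene between the areas. For Slc4a4 that difference went from -0.13 to 0.0025 on the log2 scale with TMM-scaled counts in place of TPM. No paired analysis was possible because the design has 1 group. With 2 areas no permutation test between them can be made, and leaving 1 out leaves no comparison between areas. Among the 10 genes, Gfap and Hopx had the fewest summed counts, 530 and 532.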

Other observations

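Other genes overlap 5 of the 10 loci on the opposite strand. Gm26668, a long noncoding gene, spans all of Gfap without sharing an exon base and had 388 and 205 counts, beside 285 and 245 for Gfap. Dip2a overlaps the end of S100b by 1731 bases with 0 shared exon bases and was at 6.20 and 4.89 TPM. Gm26703 overlaps the start of Sparcl1 with 0 shared exon bases and had 27.0 and 7 counts. Hopxos shares 412 exon bases with Hopx. AC133525.2 overlaps Aqp4 in GENCODE M21 and has 0 rows in the tables.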
